A study of Mus musculus with 7 samples.

Results

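Potassium channel genes were defined as the genes whose symbol begins with Kcn, on the 7 Affymetrix Mouse Gene 1.0 ST arrays of the series. Members were chosen by symbol from the probe sets whose annotation gives a single gene, and 95 of 35557 probe sets met this. They stand for 92 genes among the 19938 genes with a probe set of their own. Kcna2, Kcnh8 and Kcnma1 had 2 probe sets each, and the one with the highest mean over the 7 arrays was kept, so that choice used measured values. Kcnj13 and Kcnma1 had been singled out as markers of the group with their values known, and their levels are given as a description. The values are log2 expression values, so a difference of 1 is a 2-fold difference.

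The arrays held 1 sample each. One was MDEC, cultured mouse dermal endothelial cells labelled PECAM1+ and grown in an endothelial growth supplement. The others were B16F10, a pigmented mouse melanoma line grown in DMEM with serum: the PECAM1+ clones A2, A3, A4 and A5, the PECAM1- clone A1 and the PECAM1- parental cells. PECAM1 is a surface adhesion protein best known from endothelium, and its gene Pecam1 stood at 11.72 in MDEC, between 11.00 and 11.07 in clones A2 to A5, at 5.43 in clone A1 and at 5.27 in parental cells. Each clone had 1 array, and the labels say neither how the clones were derived nor whether they arose independently. Nor do they say that samples of a group were separate cultures, so p-values measure only how far these samples differ, and that spread may be technical. Medians over all probe sets lay between 6.12 and 6.18 on the 7 arrays.

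Potassium channels let potassium ions leave or enter a cell and so set its resting voltage. Voltage-gated families open when the membrane depolarises, inward rectifiers pass current best near or below the resting voltage, and two-pore channels leak steadily. Calcium-activated channels open when cytosolic calcium rises, and auxiliary subunits change the gating or delivery of the pore. Inward rectifiers and calcium-activated channels are known for setting the voltage of endothelial cells, and Kcnj13, which encodes the inward rectifier Kir7.1, is known for its role in retinal pigment epithelium. By symbol, the 92 genes fell into 7 roles: 25 voltage-gated pores, 15 inward rectifiers, 14 two-pore leak channels, 12 calcium- or sodium-activated channels with their subunits, 12 voltage-gated auxiliary subunits, 10 voltage-gated modifiers that form no channel alone, and 4 others.

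The start regions of 3 genes are shown, picked with their values known. Kcnj13 varied most among the B16F10 arrays, and Kcnd3 was the member furthest above B16F10 in MDEC. Kcnh2 ran opposite to Kcnj13 among the PECAM1+ clones, and how many members did so was not counted. The regions are RefSeq sequences of build GRCm38.p6, from 250 bases before to 50 bases after the annotated start, on the gene's strand. Capitals mark CATGTG or CACGTG, the E-box forms that the melanocyte factor MITF binds, and CAGGAA or CCGGAA, cores bound by ETS factors, each searched on both strands, of which CACGTG reads the same on either. ACAAAG, a core bound by SOX factors, was searched in the same way. The Kcnj13 window (chr1:87394680-87394979, minus strand) holds 1 CATGTG, written as its reverse complement, and 1 CAGGAA.
Kcnj13: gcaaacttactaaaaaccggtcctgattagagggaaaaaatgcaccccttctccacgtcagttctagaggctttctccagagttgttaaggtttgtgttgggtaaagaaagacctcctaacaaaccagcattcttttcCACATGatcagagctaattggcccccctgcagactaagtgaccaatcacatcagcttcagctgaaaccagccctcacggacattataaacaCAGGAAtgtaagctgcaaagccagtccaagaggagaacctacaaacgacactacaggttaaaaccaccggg
Kcnh2: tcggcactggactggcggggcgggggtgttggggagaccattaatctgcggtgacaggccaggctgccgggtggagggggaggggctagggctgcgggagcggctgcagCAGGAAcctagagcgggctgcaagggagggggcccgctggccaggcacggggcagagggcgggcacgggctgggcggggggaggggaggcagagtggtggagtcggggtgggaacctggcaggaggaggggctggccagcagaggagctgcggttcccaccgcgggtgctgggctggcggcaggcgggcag
Kcnd3: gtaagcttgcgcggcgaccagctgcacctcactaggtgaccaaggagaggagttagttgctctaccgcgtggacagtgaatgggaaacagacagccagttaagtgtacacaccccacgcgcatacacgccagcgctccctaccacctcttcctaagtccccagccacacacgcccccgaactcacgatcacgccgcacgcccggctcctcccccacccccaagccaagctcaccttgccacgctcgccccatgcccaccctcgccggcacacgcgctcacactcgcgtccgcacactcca
The Kcnh2 window (chr5:24329542-24329841, minus strand) holds 1 CAGGAA, and the Kcnd3 window (chr3:105451640-105451939, plus strand) holds none of these letters. CATGTG is in 3.16% of the 95 windows of the 70 members that matched and in 14.2% of all 32851 promoter windows of this length. CACGTG is in 7.37% of the members' windows and 7.15% of all windows, CAGGAA in 29.5% of the members' and 30.6% of all, CCGGAA in 8.42% of the members' and 14.9% of all, and ACAAAG in 15.8% of the members' and 18.7% of all. The letters describe these windows only, and none of these shares was tested.

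Most members were dim on these arrays. On at least 1 of the 6 B16F10 arrays, 15 of the 92 members reached the median of all genes on that array (6.60 to 6.69), where 53.5% of all genes did so. With MDEC included the count was 21 members, against 56.5% of all genes. The 6 members that reached it in MDEC alone were Kcnc2, Kcnd3, Kcnj8, Kcnk6, Kcnn3 and Kcnq1. Those that reached it on all 6 B16F10 arrays were Kcna3, Kcnab2, Kcnd3os, Kcng2, Kcnq5 and the probe set kept for Kcnma1. A value shared exactly by at least 2 arrays was present for 79 members (85.9%), and for 54.0% of all genes, and such ties narrow the measured spread of a group.

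The value kept for Kcnma1 could not be tied to the gene. Kcnma1 encodes the pore of the BK channel, which opens on calcium and voltage together. Its kept probe set, 10582545, stood at 4.27 in MDEC, at 12.77, 12.63, 12.81 and 12.67 in clones A2 to A5, at 12.93 in clone A1 and at 12.74 in parental cells. MDEC was 8.51 log2 units below B16F10, and since no detection calls were at hand this difference from a dim level may be a lower bound. The other probe set, 10418053, stood at 4.34 in MDEC, at 4.34, 4.34, 4.34 and 4.50 in clones A2 to A5, at 4.21 in clone A1 and at 4.51 in parental cells, a difference of -0.04. One probe set separated the cell types widely and the other did not separate them.

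The annotation of the 2 probe sets differs as well. The dim one lists 17 RefSeq transcripts of Kcnma1 among its 20 accessions, and its 20 nearest named probe sets by identifier all lie on chromosome 14, where the gene lies. The bright one lists 0 RefSeq transcripts of Kcnma1 among its 4 accessions, and its 20 nearest named probe sets all lie on chromosome 8. For 91 of the 92 kept probe sets the chromosome most common among these neighbours was the member's own, and Kcnma1 was the exception. A listing of 0 RefSeq transcripts was not particular to it, since 3 kept probe sets list none, those of Kcnma1, Kcnk15 and Kcnmb4os2. Among all probe sets with a single named gene of known chromosome, 94.3% of those next to each other by identifier share a chromosome. What the bright probe set measures was not tested. The 4-fold count in MDEC is also given with the other probe set. The counts against the median of all genes and at other fold thresholds include the bright one.

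**Figure D1:**
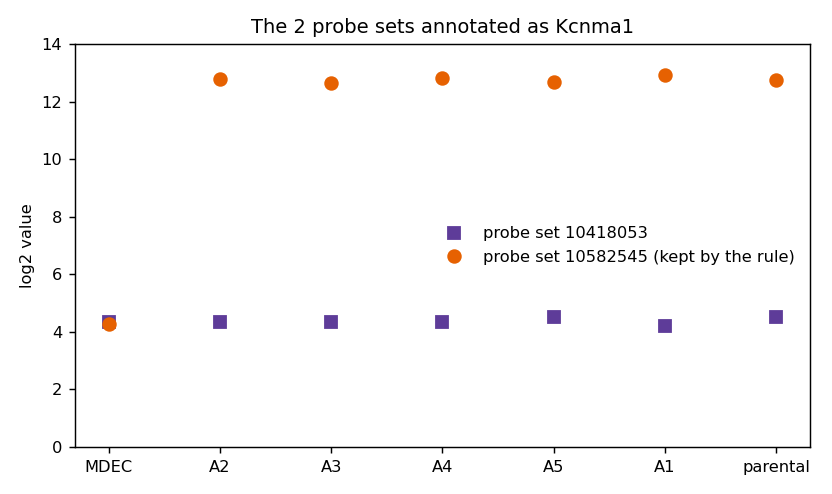
Log2 value (vertical axis) of the 2 probe sets annotated as Kcnma1 on each of the 7 arrays (horizontal axis), 1 point per array. The kept probe set (circles) lies between 12.63 and 12.93 on the B16F10 arrays and at 4.27 in MDEC, while the other (squares) stays between 4.21 and 4.51 on all 7.

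MDEC was set against B16F10 to ask which potassium channel genes differ between dermal endothelial cells and the melanoma line. With 1 MDEC array there is no test. A gene was counted when MDEC lay 4-fold (2 log2 units) or more away from B16F10, taken as the average of the PECAM1+ and PECAM1- group means, and also beyond all 6 B16F10 arrays. MDEC was higher by this rule for 2 of the 92 members (2.17%), Kcnd3 and Kcnc2, where it was higher for 2.72% of all genes. It was lower for 4 members (4.35%), Kcnma1, Kcnab2, Kcnj13 and Kcnq5, or 3 with the other Kcnma1 probe set, where it was lower for 2.01% of all genes. Over the 92 members the median difference was 0.02, against 0.0003 over all genes, and 76 members lay within 0.5 log2 units of 0.

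**Figure D2:**
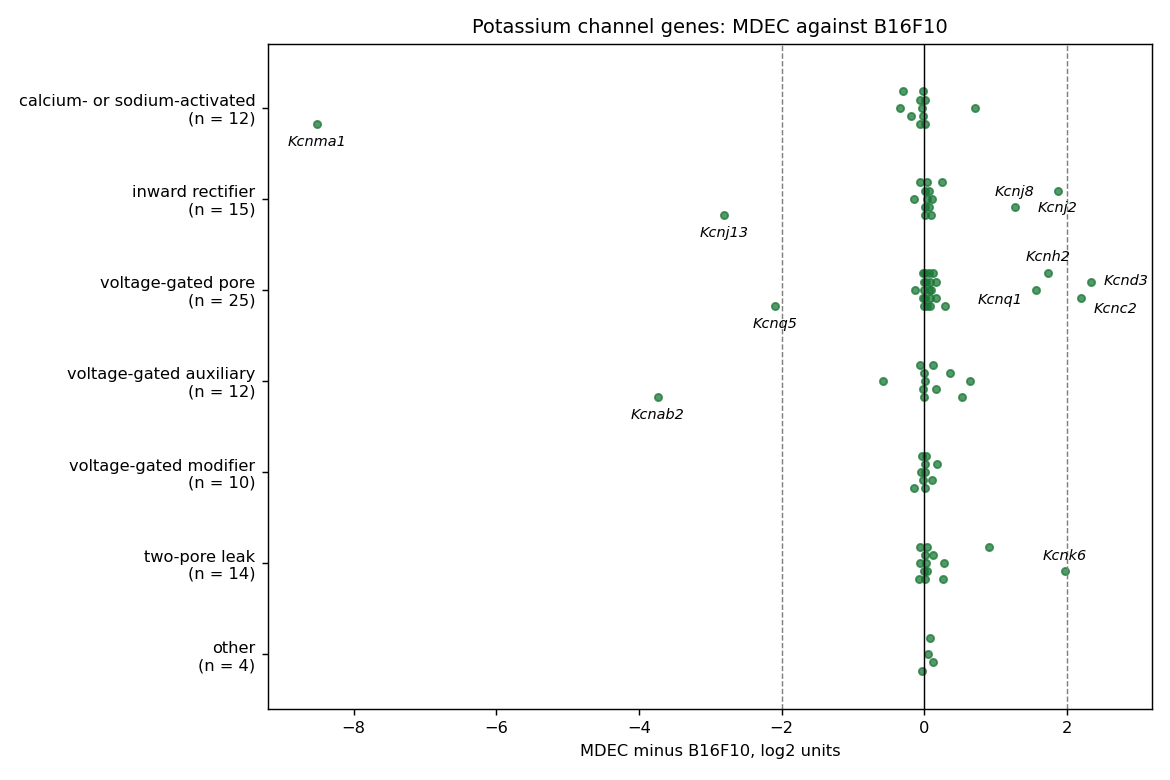
MDEC minus B16F10 in log2 units (horizontal axis) for the 92 potassium channel genes, 1 point per gene, by role (vertical axis, with the number of genes in each). Dashed lines mark 4-fold; most points sit near 0, and names are given from 1.2 log2 units, from Kcnma1 at -8.51 to Kcnd3 at 2.33.

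Of the 25 voltage-gated pores, 2 were counted higher and 1 lower in MDEC. Kcnd3, which encodes the A-type channel Kv4.3, stood at 8.11 in MDEC, at 5.88 in each of clones A2 to A5, at 5.82 in clone A1 and at 5.55 in parental cells. It was 5.04-fold (2.33 log2 units) higher in MDEC, and its antisense neighbour Kcnd3os, which overlaps it, stood at 7.55 in MDEC and between 7.35 and 7.50 in B16F10. Kcnc2, which encodes the fast delayed rectifier Kv3.2, stood at 6.61 in MDEC and between 4.35 and 4.44 on the 6 B16F10 arrays, a 4.59-fold difference. Kcnd3 and Kcnc2 were thus below the median of all genes on every B16F10 array and above it in MDEC.

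Kcnq5, whose product Kv7.5 carries M-type current, was the pore counted lower. It stood at 5.46 in MDEC, at 7.91, 7.45, 7.97 and 7.67 in clones A2 to A5, at 7.37 in clone A1 and at 7.32 in parental cells. All 6 B16F10 arrays were above MDEC, and B16F10 was 4.26-fold higher. Kcnh2, which encodes the hERG-type channel of cardiac repolarisation, stood at 8.91 in MDEC, above each B16F10 array, but at 3.33-fold fell short of the rule. Kcnq1, another cardiac and epithelial pore, stood at 7.44 in MDEC and between 5.77 and 5.91 in B16F10, 2.95-fold apart. The other 20 pores lay between -0.13 (Kcnd1) and 0.29 (Kcna2), so the remaining Kcna, Kcnb, Kcnc, Kcnd and Kcnh members showed little difference.

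Among the 12 auxiliary subunits, Kcnab2 was counted lower and none higher. Kcnab2 encodes the beta subunit Kvβ2, which joins Kv1 channels and resembles an aldo-keto reductase. It stood at 6.32 in MDEC, at 9.95, 10.02, 9.73 and 9.95 in clones A2 to A5, at 10.05 in clone A1 and at 10.34 in parental cells, and B16F10 was 13.3-fold higher. The Kcna genes, which encode its Kv1 partners, lay between 0.04 (Kcna5) and 0.29 (Kcna2) on the same scale. Nphp4, a gene that overlaps Kcnab2, stood at 6.47 in MDEC and between 6.70 and 6.98 in B16F10. Its difference of -0.36 had the sign of that of Kcnab2 (-3.74) and was far smaller. Kcnip3, a calcium-sensing partner of Kv4 channels, was 0.64 log2 units higher in MDEC, and Kcnab3 was 0.57 lower (-0.57).

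Of the 15 inward rectifiers, 1 was counted lower in MDEC and none higher, although Kcnj2 and Kcnj8 came next. Kcnj2 encodes Kir2.1, a strong rectifier known in endothelium, and stood at 5.32 in MDEC and between 3.32 and 3.49 in B16F10, a 3.65-fold difference. Kcnj8 encodes Kir6.1, the pore of a vascular ATP-sensitive channel, and stood at 6.66 in MDEC and no higher than 5.53 in B16F10, 2.41-fold apart. Both were outside the B16F10 range and short of 4-fold. The other 12 apart from Kcnj13 lay between -0.14 (Kcnj4) and 0.24 (Kcnj15).

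Kcnj13, described further on, was counted lower with a mean difference of -2.81, while its B16F10 arrays spread widely. MDEC stood at 5.39, close to parental cells at 5.88 and clone A3 at 6.11. Without clone A1 the difference was -1.38 and Kcnj13 no longer met the rule, and without parental cells it was -4.24.

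Among the 14 two-pore leak channels none was counted. Kcnk6, which encodes TWIK-2, stood at 7.76 in MDEC, at 5.45, 5.92, 5.92 and 5.92 in clones A2 to A5, at 5.59 in clone A1 and at 5.97 in parental cells. At 3.93-fold (1.97 log2 units) it lay just outside the rule, where Kcnq5 at -2.09 lay just inside it. Kcnk2, which encodes the stretch-sensitive TREK-1, stood at 6.59 in MDEC and between 5.53 and 5.81 in B16F10, a difference of 0.91. The other 12 lay between -0.08 (Kcnk12) and 0.27 (Kcnk7).

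Apart from Kcnma1, the calcium- or sodium-activated channels gave no gene past 4-fold. Kcnn3, a small-conductance channel known in endothelium, stood at 6.71 in MDEC and between 5.84 and 6.22 in B16F10, a difference of 0.72. Kcnn4, the intermediate-conductance channel also known in endothelium, stood at 6.00 in MDEC and between 6.01 and 6.61 in B16F10, a difference of -0.34. Neither of these 2 endothelial channels differed by 2-fold, and Kcnn4 in MDEC was level with clone A4 (6.01). The 10 modifiers lay between -0.14 (Kcns1) and 0.17 (Kcng3), and the 4 others between -0.03 (Kcnmb4os2) and 0.12 (Kcnd3os).

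**Figure D3:**
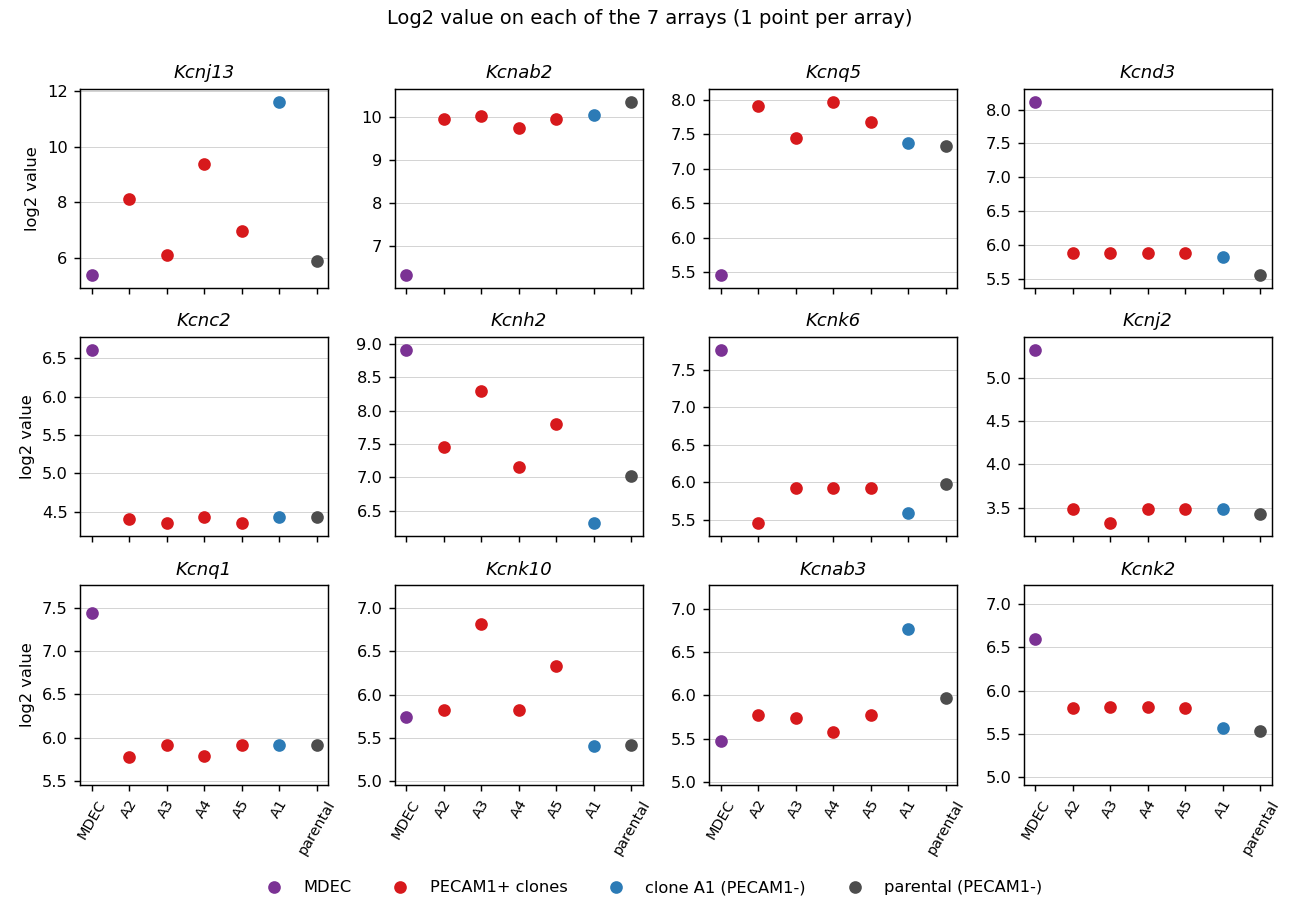
Log2 value (vertical axis, its own range in each panel) of 12 potassium channel genes on the 7 arrays (horizontal axis), 1 point per array: MDEC, PECAM1+ clones A2 to A5, clone A1 and parental cells. MDEC is the lowest point for Kcnj13, Kcnab2, Kcnq5 and Kcnab3 and the highest for Kcnd3, Kcnc2, Kcnh2, Kcnk6, Kcnj2, Kcnq1 and Kcnk2.

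Markers of the cell types moved with this contrast. All 8 melanocytic markers were counted lower in MDEC, their mean standing at 5.93 in MDEC and between 11.65 and 12.21 on the B16F10 arrays. Of 8 endothelial markers, 6 were counted higher, with a mean of 9.85 in MDEC and between 5.18 and 5.30 in B16F10. Cldn5 was 1.77 higher, and Vwf was not higher (6.41 in MDEC and between 6.55 and 7.05 in B16F10). Of 6 leukocyte markers, Cd68 and Cd53 were counted higher in MDEC, while Ptprc, which defines leukocytes, stood at 4.99 in MDEC and between 4.96 and 5.15 in B16F10. None of the 6 fibroblast or 7 mural markers was counted. The part of other cells in the MDEC values was not tested, and in such bulk RNA fewer cells of a type and less RNA per cell cannot be told apart.

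The PECAM1+ clones were compared with the PECAM1- samples to ask which genes go with PECAM status within B16F10. No potassium channel gene was called by limma at an adjusted p of 0.05, where 0.0100% of all genes were called, and 7 members (7.61%) had an unadjusted p under 0.05, where 9.18% of all genes did (Kcnab3, Kcnd3, Kcnh2, Kcnj5, Kcnk10, Kcnk2 and Kcnn4). With parental cells left out, 9 members were called, as given below for clone A1 alone. The 4 clones all lay above both PECAM1- samples for 9 members (9.78%), where 7.73% of all genes did so. They lay below both for 3 members (3.26%), Kcnab2, Kcnab3 and Kcnn4, against 8.68% of all genes. The 9 that lay above were Kcnd3, Kcnh2, Kcnj5, Kcnk10, Kcnk2, Kcnmb1, Kcnq3, Kcnq5 and Kcns1.

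Because clone A1 departs from the other B16F10 arrays, the clones were also compared with each PECAM1- sample singly. These comparisons share the 4 clones, and the lone sample is assumed to vary as the clones do. Clone A1 lay 2-fold or more away from the average of its 5 fellow B16F10 arrays for 3 members, Kcnj13 (4.31), Kcnh2 (-1.24) and Kcnab3 (1.00), and for 6.37% of all genes. Parental cells passed that bound for Kcnj13 alone (-2.56) and for 0.722% of all genes. Among the PECAM1+ clones, A3 passed it for Kcnj13 (-2.28), Kcnh2 (1.14) and Kcnk10 (1.06), A4 for Kcnj13 (1.63), A5 for Kcnj13 (-1.25) and A2 for no member. The share of all genes was 0.155% in A2, 0.542% in A3, 0.391% in A4 and 0.206% in A5.

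Against clone A1, limma called 7 members higher in the PECAM1+ clones (7.61%, where 9.33% of all genes were called) and 2 lower (2.17%, against 11.2% of all genes). The higher ones were Kcnj15, Kcnk2, Kcnmb2, Kcne3, Kcnd2, Kcnj6 and Kcnmb4, and the lower ones Kcnab3 and Kcnu1. Kcnab3, a Kv1 beta subunit, stood at 5.77, 5.74, 5.58 and 5.77 in clones A2 to A5, at 6.77 in clone A1 and at 5.97 in parental cells. It fell by 1.05 against clone A1 (limma difference -1.05 ± 0.09 SE, adjusted p = 0.00735), and clone A1 lay above all other arrays. The calls of Kcnab3 and Kcnj15 held under 11 of 11 other settings, a count that leaves out the filter on dim genes, while the 9 calls in all became 3 after quantile normalization and 5 with all probe sets tested. Kcnk2 and Kcnmb2 were called under 10 of these 11 settings and Kcne3 under 9. Kcnmb4 was called under 6, Kcnd2 and Kcnu1 under 5 each, and Kcnj6 under 3. The probe set means and the other Kcnma1 probe set are among these 11 settings. Each of the 9 called genes has a single probe set, so its values do not change there and those settings are no test of it.

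The higher calls were small. Kcnj15, which encodes the inward rectifier Kir4.2, stood at 5.33, 5.33, 5.33 and 5.38 in clones A2 to A5, at 4.99 in clone A1 and at 5.33 in parental cells. Its limma difference from clone A1 was 0.36 ± 0.03 (SE, adjusted p = 0.00723). Kcnk2 stood at 5.80, 5.81, 5.81 and 5.80 in clones A2 to A5, at 5.57 in clone A1 and at 5.53 in parental cells, with a limma difference of 0.23 ± 0.02 from clone A1 (SE, adjusted p = 0.00959). Here the clones lay above both PECAM1- samples, although the difference of 0.27 ± 0.02 from parental cells was not called (limma adjusted p = 0.0969). Kcnmb4, a BK channel beta subunit, was 0.41 ± 0.09 (SE) higher than in clone A1, with a limma adjusted p of 0.0490 that ranged between 0.0353 and 0.115 over the other settings, while Kcnmb4os1 and Kcnmb4os2, which overlap it, were not called. The calls of Kcnmb2, a further BK beta subunit, and of Kcnu1 rest on clones with 1 identical value each, 4.96 and 4.58. Among the 4 clones, Kcnj15, Kcne3, Kcnd2 and Kcnj6 had only 2 distinct values, and Kcnk2 and Kcnab3 had 3. Such ties narrow the spread behind these calls too. None of the genes called higher reached the median of all genes on any array.

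Of the marker lists, limma called no melanocytic gene against clone A1. Tie1, an endothelial receptor (0.26), and the collagen gene Col1a2 (0.72) were called higher in the PECAM1+ clones. Tie1 was dim in both, between 5.83 and 5.87 in clones A2 to A5 and at 5.59 in clone A1, where MDEC stood at 11.41. The other endothelial markers were not called, and the median difference over all 8 was 0.02. The macrophage marker Cd68 was called lower. Cd68 stood at 8.12, 8.16, 7.96 and 8.05 in clones A2 to A5 and at 10.07 in clone A1, where the leukocyte marker Ptprc stood at 4.99. The part of such cells in the values of clone A1 was not tested.

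The widest differences from clone A1, Kcnab3 aside, were those of genes that were not called. Kcnh2 stood at 7.46, 8.29, 7.16 and 7.80 in clones A2 to A5, at 6.31 in clone A1 and at 7.03 in parental cells, so all 4 clones lay above both PECAM1- samples. Its limma difference was 1.37 ± 0.47 from clone A1 (SE, adjusted p = 0.131), 0.65 ± 0.47 from parental cells (adjusted p = 0.728) and 1.01 ± 0.37 from the pair (adjusted p = 0.504). Kcnk10, which encodes the leak channel TREK-2, stood at 5.82, 6.82, 5.82 and 6.32 in clones A2 to A5, at 5.40 in clone A1 and at 5.41 in parental cells. The clones again lay above both, with a limma difference of 0.79 ± 0.31 from the pair (SE, adjusted p = 0.537). For Kcnh2 and Kcnk10, clones A3 and A5 were the highest.

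**Figure D4:**
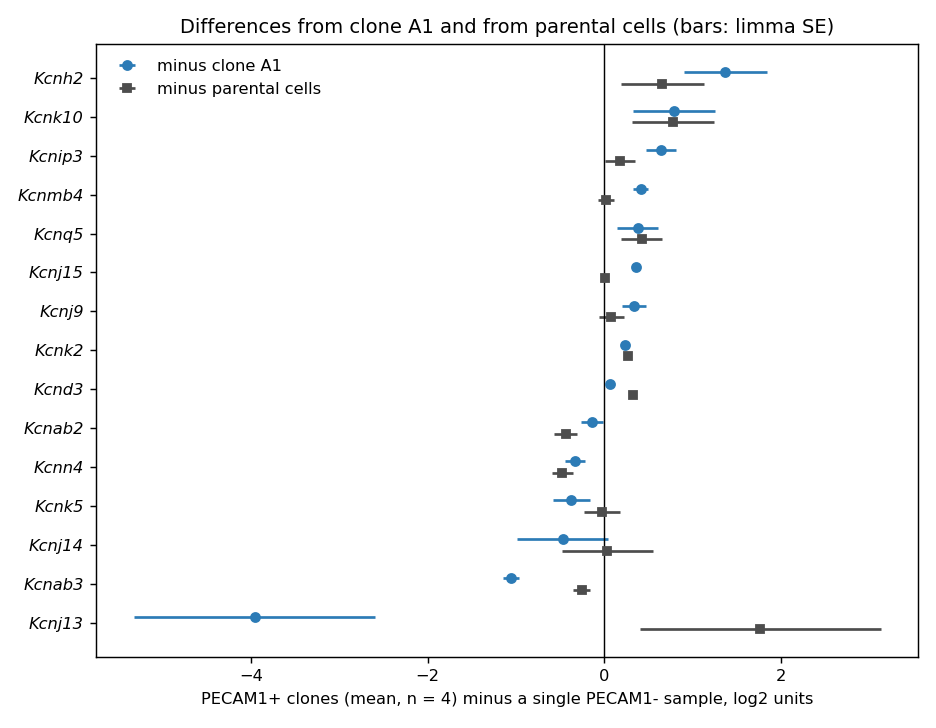
Difference of the PECAM1+ clones (mean of 4 arrays) from clone A1 (circles) and from parental cells (squares), in log2 units (horizontal axis), for the 15 potassium channel genes named for a PECAM1 comparison (vertical axis). Bars are the limma standard error, hidden by the marker where small; Kcnj13 lies at -3.96 from clone A1 and at 1.77 from parental cells.

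Against parental cells no member was called, where limma called 0.0100% of all genes, and 8 members (8.70%) had an unadjusted p under 0.05, where 2684 of 19938 genes did (Kcnab2, Kcnab3, Kcnd3, Kcnj5, Kcnj6, Kcnk2, Kcnn4 and Kcnrg). Kcnd3 was 0.33 ± 0.02 (SE) above parental cells, with a limma adjusted p of 0.0951. Kcnn4 stood at 6.06, 6.23, 6.01 and 6.24 in clones A2 to A5, at 6.46 in clone A1 and at 6.61 in parental cells. Its clones lay below both PECAM1- samples, by -0.47 ± 0.12 from parental cells (SE, limma adjusted p = 0.242). Kcnab2 was -0.43 ± 0.13 (SE) from parental cells, with a limma adjusted p of 0.298. Kcnq5 was 0.43 ± 0.23 (SE) from parental cells, with a limma adjusted p of 0.584.

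Kcnj13 had the widest range of all members among the B16F10 arrays. It stood at 8.13, 6.11, 9.37 and 6.98 in clones A2 to A5, at 11.61 in clone A1 and at 5.88 in parental cells, with MDEC at 5.39. The clones averaged 7.65 ± 1.42 (SD, n = 4) and lay between the 2 PECAM1- samples, all below clone A1 and all above parental cells. The difference was -3.96 ± 1.37 (limma SE) from clone A1, 1.77 ± 1.37 from parental cells and -1.10 ± 1.75 from the pair, and none was called. PECAM status therefore does not order these values. Gigyf2, which overlaps Kcnj13, stood at 9.46, 9.27, 9.21 and 9.24 in clones A2 to A5, at 9.61 in clone A1 and at 9.34 in parental cells, a range far narrower than that of Kcnj13.

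Among the 4 PECAM1+ clones Kcnj13 ran A4, A2, A5, A3 from high to low. The mean of the 8 melanocytic markers ran in the same order, at 12.21 in A4, 11.99 in A2, 11.92 in A5 and 11.65 in A3. Singly, Dct, Pmel, Mitf and Slc45a2 kept that order. Tyr and Mlana put A5 above A2, and Tyrp1 and Sox10 put A5 lowest. Kcnq5 ran in the order of Kcnj13, and so did the probe set kept for Kcnma1, from 12.81 in A4 to 12.63 in A3. Kcnh2 ran in the reverse order, from A3 to A4. How many of the members, and what share of all genes, ran in either order was not counted, so these matches are only a description. Clone A1 and parental cells did not extend the order, since the marker mean was 11.95 in clone A1 and 11.75 in parental cells while Kcnj13 was at its highest and lowest there. Mitf was lowest of the 6 B16F10 arrays in clone A1 (11.37) and stood at 11.94 in parental cells, opposite to Kcnj13. Dct was highest in clone A1 (12.89), and Pmel (12.81) and Slc45a2 (12.18) there lay within the range of the other B16F10 arrays. Each clone had 1 array and the order was noticed in the data, so the likeness of these orders was not tested. Apart from Kcnj13, B16F10 arrays spanned 2-fold or more for Kcnab3, Kcnh2, Kcnj14 and Kcnk10, 5 members in all (5.43%), where 11.7% of all genes did so. Kcnj14, which encodes Kir2.4, stood at 4.46, 5.20, 5.20 and 5.76 in clones A2 to A5, at 5.63 in clone A1 and at 5.12 in parental cells.

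Other genes of potassium handling were described from 3 lists drawn up with results of these data known. Of 10 measured genes for potassium uptake and cotransport, 2 were at least 4-fold higher and 1 lower in MDEC, and the median difference was 0.41. The higher ones were Atp1b1, a sodium pump beta subunit (2.84), and Slc12a2, the NKCC1 cotransporter (2.40), and the lower one was Slc12a7, the KCC4 cotransporter (-2.08). Of 19 cation channels that set voltage or calcium, Itpr3, a calcium release channel, was higher (2.37) and Trpv2 lower (-3.44) in MDEC, with a median of 0.15. Of 15 auxiliary partners of potassium channels none passed 4-fold, and the median was 0.02. By the same 4-fold rule, MDEC was higher for 2.72% of all genes and lower for 2.01%.

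In the comparison with clone A1, limma called 1 uptake gene higher and 1 lower, 1 cation channel higher and 3 lower, and 2 auxiliary partners higher and 2 lower. Over the 3 lists that is 4 of 44 genes higher (9.09%, where 9.33% of all genes were called) and 6 lower (13.6%, against 11.2%). Fxyd5, a regulator of the sodium pump, was 2.29 higher in the PECAM1+ clones than in clone A1 (limma adjusted p = 0.0129), at 11.06, 11.20, 10.60 and 11.16 in clones A2 to A5, 8.72 in clone A1 and 10.56 in parental cells. Trpm4, a calcium-activated cation channel, was -1.17 from clone A1 (limma adjusted p = 0.0191). Kctd12, an auxiliary subunit of GABA-B receptors that act on inward rectifiers, was -1.53 from clone A1 (limma adjusted p = 0.0264). Against parental cells, and against both PECAM1- samples, limma called none of the genes on the 3 lists. Trpm1, a channel of melanocytes, stood at 7.35, 6.53, 8.51 and 7.35 in clones A2 to A5, at 7.80 in clone A1 and at 7.23 in parental cells. Among the clones it was highest in A4 and lowest in A3 as Kcnj13 was, with A2 and A5 level, and this likeness was not tested.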

How the data were processed

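Total RNA was biotin-labelled and hybridised to single-colour Affymetrix Mouse Gene 1.0 ST arrays, per the labels' protocols. The deposited table holds log2 values made by the authors with Partek, per the submitters' processing notes. How probes were summarised and normalized, and on which build, is not given in the sources used here. The log2 scale was read from the values (1.39 to 13.5). Without detection calls, signal over background is unknown.

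Probe sets were named from the platform annotation, which gave 1 symbol for 21789 of 35557, several for 1621 and none for 12147. All 92 members matched a GRCm38.p6 gene table by Entrez identifier. Each gene was represented by its brightest probe set on average over the 7 arrays. PECAM1+ clones were compared with both PECAM1- samples, with clone A1 and with parental cells by limma 3.58.1 in R 4.3.3 (lmFit, eBayes with trend, two-sided), with Benjamini-Hochberg adjustment over 19938 genes and a threshold of 0.05. These fits left MDEC out. The fits were also run on simulated data with planted differences. Every simulated sample was given the spread of the PECAM1+ clones, so the simulation cannot check the assumption that a lone sample varies as the clones do.

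Alternatives were quantile normalization, median centring, a filter on dim genes (the gene median on at least 1 array of the comparison), all probe sets, probe set means, other limma settings, other fold thresholds and leaving out each sample. Named genes were Kcnj13, Kcnma1, every member called against both PECAM1- samples, the members with the largest differences in each comparison and in each role, and those with the largest spread among the clones, which gave 23 genes. Called or non-overlapping members outside it are named as counts are given. Members, roles and lists were chosen with earlier results of these data known.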

Additional observations from a re-analysis of the deposited data

Results flagged for a closer look

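Among the 4 PECAM1+ clones, 6 of the 23 named genes had 1 clone set apart by a gap that takes up most of the group's range. The same held for 26 of the 92 members (28.3%) and for 21.1% of all genes. Chance gives such a gap in about 1 in 20 groups of values without ties, and that rate cannot be applied here, since for 4 of the 6 genes the other 3 clones shared a single value. Kcnd3 was highest in clone A4 (5.88), by a margin under 0.01 log2 units. Kcnk6, which encodes TWIK-2, was lowest in clone A2 (5.45), where the others stood at 5.92. Kcnj2, which encodes Kir2.1, was lowest in clone A3 (3.32), where the others stood at 3.49. Kcnj15, which encodes Kir4.2, was highest in clone A5 (5.38), where the others stood at 5.33. Kcnab3, a Kv1 beta subunit, was lowest in clone A4 (5.58), where the others lay between 5.74 and 5.77. Kcnj9, which encodes the G protein-gated Kir3.3, was highest in clone A3 (5.50), where the others lay between 5.21 and 5.23. All 6 of these probe sets were below the median of all genes on the clone concerned.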

How the results depend on the processing

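No potassium channel gene was called by limma against both PECAM1- samples under 9 other settings with all 6 arrays. Leaving out 1 sample gave counts between 0 and 9, and the count of 9 came from leaving out parental cells. Against parental cells the count was 0 under every setting tried. Against clone A1 the 9 calls became 3 after quantile normalization, 5 with all 35557 probe sets tested, 1 (Kcnab3) with dim genes left out and 6 to 10 when 1 clone was left out. Of all features tested, 21.5% were called after quantile normalization, 13.9% with all probe sets and 38.2% with the filter on dim genes, the filter leaving 14 members and passing Kcnab3 only through clone A1, where it is high, so that count supports nothing about it. The causes of these changes were not tested. In MDEC, 11 of 92 members (against 13.3% of all genes) were at least 2-fold from B16F10, against 6 at 4-fold. At least 8-fold away were 2 (2.17%, against 2.17% of all genes). The counts at 2-fold and 8-fold include the bright Kcnma1 probe set. With its other probe set (-0.04) Kcnma1 would pass neither bound, and Kcnab2 would be the only member at 8-fold. Kcnk6 passed 4-fold after quantile normalization (2.06), with median centring (2.02) and without parental cells (2.07). The Kcnma1 difference was -4.27 as a mean over its 2 probe sets and -0.04 with its other probe set, a setting chosen after seeing the data. Kcnj13 against both PECAM1- samples ranged between -3.96 without parental cells and 1.77 without clone A1, which turned its sign. No paired analysis was possible because the labels give no replicate numbers that pair samples. Precision is limited by 1 array per clone, by MDEC having a single array, and by many identical values among dim members.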
